A study of Rattus norvegicus with 6 samples.

Results

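The genes described here were 10 members of the fibroblast growth factor (FGF) system, namely the ligand genes Fgf1, Fgf2, Fgf5, Fgf7, Fgf9, Fgf10 and Fgf18 and the receptor genes Fgfr1, Fgfr2 and Fgfr3. They were taken by gene symbol from the mRNA table of the series, in which all 10 were found among 30957 genes. All 10 passed the filter on low counts that left 15195 genes for the tests.

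Total RNA after removal of ribosomal RNA was sequenced from the sciatic nerve of Sprague-Dawley rats that were 1 month old. The D4 and D7 groups were sampled 4 and 7 days after the left nerve had been crushed with hemostatic forceps. The control group is labelled as normal nerve, and by the study's methods its rats had the same operation without the clamp. Each group held 2 libraries, called a and b, each from another rat. The nerve was sequenced whole, so that fewer cells of a type and less RNA per cell cannot be told apart in any value below.

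FGFs are secreted proteins that bind heparan sulfate chains at the cell surface and activate receptor tyrosine kinases on the same or neighbouring cells. The activated receptors pass the signal through docking proteins and Ras to a cascade of kinases. Sprouty proteins, Spred proteins and the phosphatase Dusp6 then restrain the signal. In peripheral nerve, FGFs are known as growth factors for Schwann cells, for fibroblasts and for neurons with injured axons.

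The mRNA libraries held 18727255 to 25350886 counted fragments. Genes of myelinating Schwann cells marked the tissue as nerve, with 6 of 6 markers downregulated in the D4 group and 4 of 6 in the D7 group. Their summed level was 100733 and 68388 CPM (counts relative to library size, scaled by the trimmed mean of M values, TMM) in the control libraries, 2734 and 3219 in the D4 libraries, and 15575 and 9530 in the D7 libraries. In the same libraries 6 of 6 macrophage markers were upregulated on both days, with summed levels of 248 to 287 in the control group, 881 to 920 in the D4 group and 585 to 706 in the D7 group. Markers of injured or immature Schwann cells summed to 123 to 126 in the control group, 1978 to 2106 in the D4 group and 1140 to 1229 in the D7 group. Of these 6 markers, 3 (Ngfr, Shh and Gdnf) were upregulated on both days, and Ncam1 was downregulated in the D4 group. The injured sums came mostly from Ngfr, with 45418 and 53579 counts in the D4 libraries. The control sums came mostly from Ncam1, with 1801 and 1487 counts. Of 4 T cell markers, 3 (Cd3e, Cd4 and Cd8a) were upregulated in the D4 group and 4 in the D7 group. Most of their counts were of Cd4, at 616 and 470 in the control libraries and 2284 and 2268 in the D4 libraries. Of 4 endothelial markers, 3 were downregulated in the D4 group and 4 in the D7 group. Of 3 perineurial markers, Cldn1 and Itgb4 were downregulated in the D4 group, and Cldn1 and Slc2a1 in the D7 group. Fibroblast markers summed to 55019 and 59731 CPM in control libraries, 37301 and 33604 in D4 libraries, and 28933 and 31909 in D7 libraries. Of these 6 markers, 0 were downregulated in the D4 group and 1 in the D7 group. Their sum came mostly from the collagen genes Col1a1 and Col3a1. On both days the log2 fold change was positive for Pdgfra (0.68 and 0.49) and Pi16 (0.31 and 0.12). It was negative for Col1a1, Col3a1, Dcn and Lum. Of 5 pericyte and smooth muscle markers, 1 was downregulated in the D4 group and 2 in the D7 group. The part of these shifts in the results below was not tested.

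A gene was called a differentially expressed gene (DEG) at an adjusted p under 0.05 by the quasi-likelihood test of edgeR (Benjamini-Hochberg adjustment, all genes tested) and an absolute log2 fold change of at least 1. In the control vs D4 group, 3 of the 10 genes were DEGs, beside 21.9% of all genes tested. Fgf5 was upregulated, while Fgf1 and Fgf7 were downregulated. In the control vs D7 group, 4 of the 10 were DEGs, beside 18.8% of all genes tested, and Fgf9 was upregulated in addition to Fgf5. Both comparisons used the same control libraries. The median log2 fold change of the 10 genes was -0.59 in the D4 group and -0.47 in the D7 group, beside -0.04 and 0.01 over all genes tested. Leaving out TMM factors moved the median over all genes to 0.25 and 0.31.

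**Figure D1:**
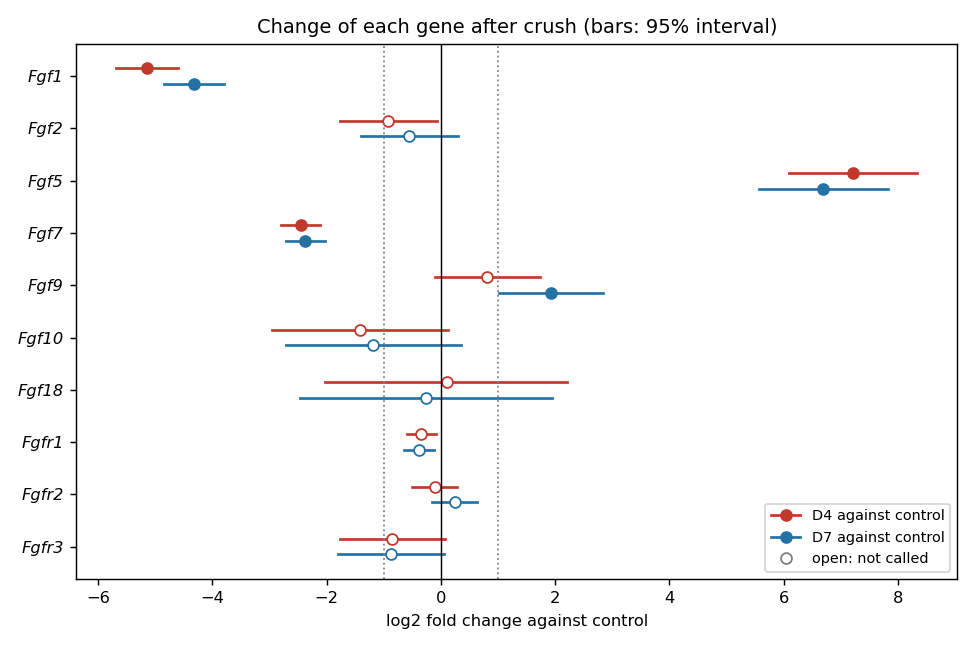
Log2 fold change of each gene against control in the D4 group (red) and the D7 group (blue), with the 95% interval of the edgeR fit as a bar, filled points for DEGs and dotted lines at a 2-fold change. Fgf5 lay at 7.22 and 6.69, Fgf1 at -5.14 and -4.32 and Fgf7 at -2.45 and -2.38, while the 3 receptor genes lay between -0.87 and 0.24.

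Fgf1 (ENSRNOG00000013867, chr18:32273770-32359824 in Rnor_6.0) encodes acidic FGF, which lacks a classical secretion signal and can bind every FGF receptor. It had 13882 and 9813 counts in the control libraries, 433 and 521 in the D4 libraries, and 822 and 545 in the D7 libraries. The control libraries were far above all 4 injured libraries. The log2 fold change was -5.14 (SE 0.22, adjusted p = 0.000119) in the D4 group, a level 35.3-fold lower with a 95% interval of 24.2 to 51.3. In the D7 group it was -4.32 (SE 0.21, adjusted p = 0.000245), a level 19.9-fold lower with an interval of 13.9 to 28.6. The 2 D7 libraries lay above both D4 libraries, and the log2 difference between the days was 0.82 (SE 0.19, 95% interval 0.36 to 1.29, adjusted p = 0.0705). That difference passed the threshold without D7 library b, with a log2 difference of 1.06 and an adjusted p of 0.0326, and without D7 library a it was 0.53 with an adjusted p of 0.247.

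Fgf5 (ENSRNOG00000022631, chr14:12974921-12995584) encodes a secreted ligand best known for ending the growth phase of hair follicles. It had 1 and 6 counts in the control libraries, 624 and 934 in the D4 libraries, and 412 and 451 in the D7 libraries. Every injured library was thus well above both control libraries. Against control, the log2 fold change was 7.22 (SE 0.46, adjusted p = 0.000203) in the D4 group and 6.69 (SE 0.46, adjusted p = 0.000422) in the D7 group. The size of these changes rested on 7 control counts. As a ratio of the scaled sums, Fgf5 was 156-fold higher in the D4 group, with a 95% counting interval of 75.4 to 388, and 107-fold higher in the D7 group, with an interval of 51.7 to 267. Without control library a the log2 fold change was 6.35 in the D4 group and 5.82 in the D7 group, and without control library b it was 9.04 and 8.51. Between the days the log2 difference was -0.53 (SE 0.27, adjusted p = 0.297).

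Fgf7 (ENSRNOG00000009425, chr3:118317761-118366872) encodes keratinocyte growth factor, a product of mesenchymal cells that acts mainly on epithelial cells. It had 728 and 749 counts in the control libraries, 185 and 203 in the D4 libraries, and 164 and 166 in the D7 libraries. The control libraries stood apart from the injured ones, and within each group the libraries lay close together. Its D4 level changed by a log2 fold of -2.45 (SE 0.14, adjusted p = 0.000164) and its D7 level by -2.38 (SE 0.14, adjusted p = 0.000344). These are levels 5.47-fold lower (95% interval 4.31 to 6.94) and 5.19-fold lower (4.09 to 6.59). The D7 and D4 groups differed by 0.08 (SE 0.14, adjusted p = 0.786). The span of Fgf7 lies inside that of Fam227b, which had 22 to 64 counts in each library.

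**Figure D2:**
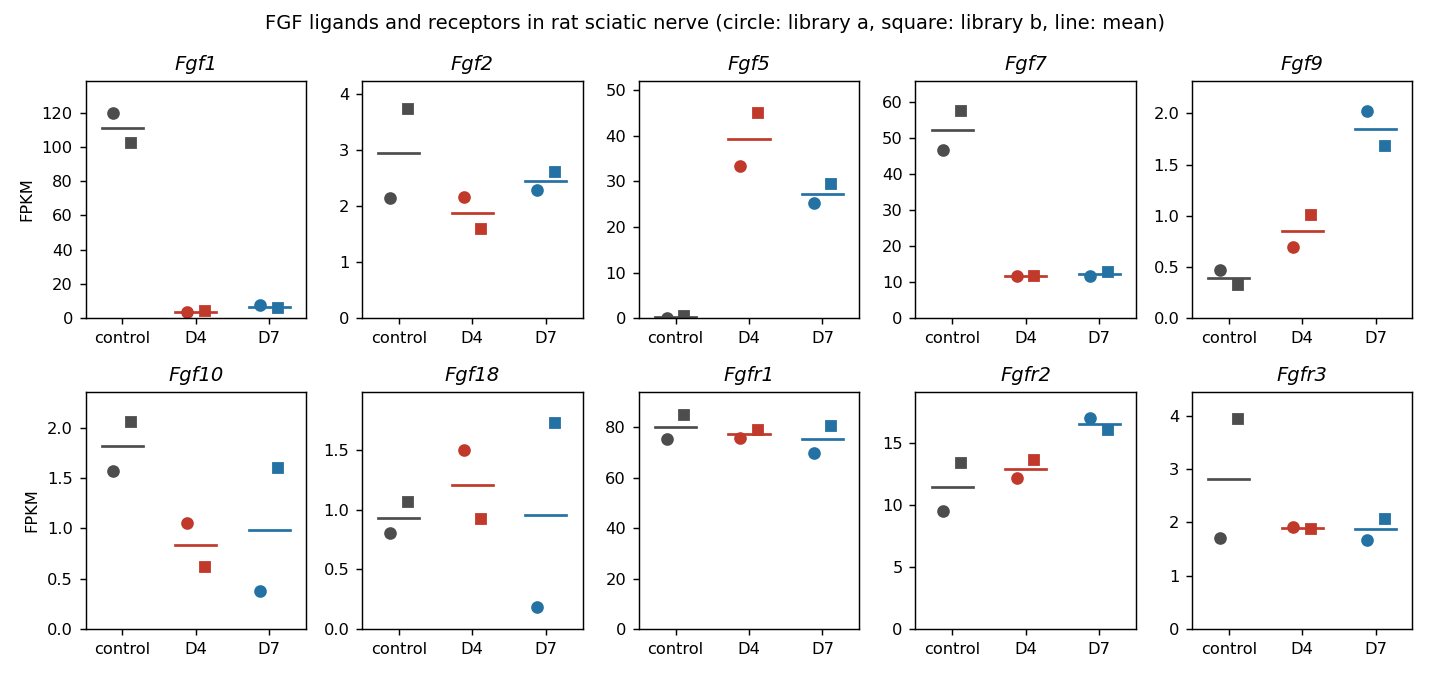
FPKM (fragments per kilobase of transcript, relative to all fragments of the library) of the 10 genes in each library, as circles for library a and squares for library b, with the group mean as a line and a separate axis from 0 for each gene. Fgf1 and Fgf7 were lower and Fgf5 was higher in every injured library, while Fgfr1 stayed between 69.8 and 84.8 FPKM in all 6 libraries.

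The promoters of the 3 genes called on both days are shown so that the sequence before each start can be read beside these changes. They are the 250 bases before the RefSeq transcription start in the GRCr8 assembly, 5′ to 3′ on the gene's strand, from a table that held 9 of the 10 genes (all but Fgfr1). Capitals mark every match, on either strand, to the TATA box (TATAAA), the GC box (GGGCGG), the AP-1 motif (TGANTCA), the EGR motif (GCGNGGGCG, which can overlap a GC box) and the SOX motif (ACAANG). The Fgf5 window is chr14:11650244-11650493 on the minus strand, the Fgf7 window chr3:133735377-133735626 on the plus strand, and the Fgf1 window chr18:30961394-30961643 on the minus strand. The Fgf1 start of that table lies 62393 bases inside the outer end of the gene, so that its window stands for an internal start, and the Fgf7 start lies 1070 bases inside the outer end of its gene.
Fgf5: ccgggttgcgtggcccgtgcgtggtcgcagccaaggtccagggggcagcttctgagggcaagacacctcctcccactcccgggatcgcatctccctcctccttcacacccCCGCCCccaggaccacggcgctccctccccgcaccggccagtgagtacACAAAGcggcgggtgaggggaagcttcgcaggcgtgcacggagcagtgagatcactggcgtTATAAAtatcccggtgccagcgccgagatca
Fgf7: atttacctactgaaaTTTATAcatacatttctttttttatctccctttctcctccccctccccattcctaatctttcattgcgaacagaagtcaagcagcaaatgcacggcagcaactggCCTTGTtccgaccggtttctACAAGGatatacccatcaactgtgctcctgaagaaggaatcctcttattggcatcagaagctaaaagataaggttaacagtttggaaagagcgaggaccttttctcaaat
Fgf1: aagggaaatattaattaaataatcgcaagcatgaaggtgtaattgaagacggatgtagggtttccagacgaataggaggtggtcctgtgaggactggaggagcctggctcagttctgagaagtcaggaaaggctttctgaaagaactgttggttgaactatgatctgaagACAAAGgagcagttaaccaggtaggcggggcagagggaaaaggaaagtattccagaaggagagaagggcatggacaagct
The Fgf5 window had a G and C content of 66.8% and held TATAAA at positions -31 to -26 from the start, a sequence found in the windows of 12.9% of 33469 genes. It also held a GC box (in 30.5% of windows) and a SOX match (36.9%). The Fgf7 window, at 41.6% G and C, held TATAAA on the opposite strand at positions -235 to -230 and 2 SOX matches. The Fgf1 window, at 46% G and C, held a SOX match. The AP-1 letters, in 6.34% of windows, were in none of the 9 windows, and the EGR letters, in 4.29%, were in those of Fgfr2 and Fgfr3. These matches describe the letters of each window and show no binding.

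Fgf9 (ENSRNOG00000011471, chr15:38341089-38387316) encodes a ligand first known as glia-activating factor. It had 21 and 12 counts in the control libraries, 32 and 51 in the D4 libraries, and 81 and 63 in the D7 libraries. The 3 groups did not overlap, with D7 the highest. Its log2 fold change was 0.81 (SE 0.38, 95% interval -0.10 to 1.73, adjusted p = 0.127) in the D4 group and 1.92 (SE 0.37, adjusted p = 0.0102) in the D7 group. The D7 level was 3.79-fold higher than control, with an interval of 2.02 to 7.11. When a change of more than 2-fold was itself tested, the adjusted p was 0.0908. The D7 and D4 groups differed by 1.11 (SE 0.34, adjusted p = 0.121).

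Fgf2 (ENSRNOG00000017392, chr2:124081072-124134681), the basic FGF, is a mitogen for many cell types. It had 61 and 89 counts in the control libraries, 63 and 51 in the D4 libraries, and 58 and 62 in the D7 libraries. The highest value was that of control library b, at 5.37 CPM, and the other 5 libraries lay between 1.88 and 3.14 CPM. The log2 fold change was -0.92 (SE 0.35, 95% interval -1.77 to -0.07, adjusted p = 0.0746) in the D4 group and -0.55 (SE 0.35, interval -1.40 to 0.30, adjusted p = 0.252) in the D7 group. Without control library a, Fgf2 passed the threshold in the D4 group, with a log2 fold change of -1.26 and an adjusted p of 0.0326. Without control library b the value was -0.49 (adjusted p = 0.316) in the D4 group and -0.12 (adjusted p = 0.821) in the D7 group. An end of Fgf2 overlaps Nudt6, which had 20 to 77 counts in each library. The sources used here do not say whether fragments were counted by strand, so that fragments of the overlap cannot be assigned to either gene.

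Fgf10 (ENSRNOG00000012278, chr2:51672722-51750369) encodes a mesenchymal ligand of the Fgfr2 isoform found on epithelial cells. It had 150 and 164 counts in the control libraries, 102 and 66 in the D4 libraries, and 32 and 127 in the D7 libraries. The D7 libraries lay on both sides of the D4 libraries. Its log2 fold change was -1.41 (SE 0.63, adjusted p = 0.117) in the D4 group and -1.18 (SE 0.63, adjusted p = 0.187) in the D7 group. The spread was estimated over all 3 groups. When it was estimated from the control and D4 libraries alone, the D4 change was -1.36 with an adjusted p of 0.0238. Without D7 library a or D7 library b, the D4 change was -1.37 or -1.41 with an adjusted p of 0.0224 or 0.0217. Without D7 library b, the D7 change was -2.55 with an adjusted p of 0.0149, and without D7 library a it was -0.46 with an adjusted p of 0.443.

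Fgf18 (ENSRNOG00000048389, chr10:18047109-18063391) encodes a ligand known from bone and cartilage growth. It had 10 and 11 counts in the control libraries, 19 and 13 in the D4 libraries, and 2 and 18 in the D7 libraries. Its log2 fold changes of 0.10 (SE 0.87) in the D4 group and -0.26 (SE 0.90) in the D7 group had wide intervals, and the sign turned with the library left out. D7 library a was also lowest in 4 adipocyte markers (Adipoq, Plin1, Lep and Cidec), whose summed level was 1098 and 888 CPM in the control libraries, 252 and 123 in D4 libraries a and b, and 4.41 and 351 in D7 libraries a and b. Fgf10 stood at 4.19 and 2.44 CPM in D4 libraries a and b and at 1.5 and 6.28 in D7 libraries a and b. None of the 4 adipocyte markers was a DEG by edgeR or DESeq2 or had an unadjusted p under 0.05 in either comparison, and their part in the Fgf10 and Fgf18 values was not tested.

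**Figure D3:**
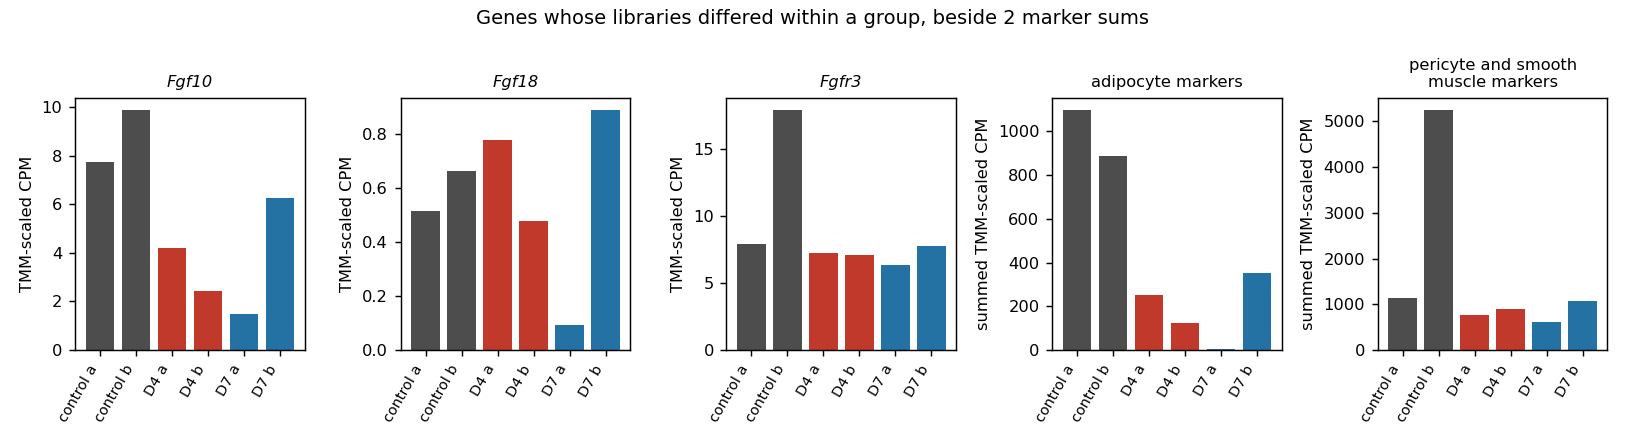
TMM-scaled CPM of Fgf10, Fgf18 and Fgfr3, and summed TMM-scaled CPM of 4 adipocyte markers and 5 pericyte and smooth muscle markers, as a bar from 0 for each library (control grey, D4 red, D7 blue). D7 library a was lowest in Fgf10, Fgf18 and the adipocyte markers, and control library b was highest in Fgfr3 and the pericyte and smooth muscle markers.

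Among the receptors, Fgfr1 (ENSRNOG00000016050, chr16:71266248-71319449), the main FGF receptor of mesenchymal and neural cells, had the most counts. It had 6460 and 6072 counts in the control libraries, 6618 and 7638 in the D4 libraries, and 5337 and 5758 in the D7 libraries. The log2 fold change was -0.34 (SE 0.11, adjusted p = 0.0457) in the D4 group and -0.38 (SE 0.11, adjusted p = 0.0343) in the D7 group, under the 2-fold limit for a DEG. Without TMM factors these values were -0.05 and -0.09.

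Fgfr2 (ENSRNOG00000016374, chr1:200590953-200696928), whose isoforms differ in the ligands they bind, had 1018 and 1195 counts in the control libraries, 1336 and 1648 in the D4 libraries, and 1625 and 1433 in the D7 libraries. Its log2 fold change was -0.10 (SE 0.16, adjusted p = 0.631) in the D4 group, and 0.18 without TMM factors. In the D7 group it was 0.24 (SE 0.16, adjusted p = 0.28).

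Fgfr3 (ENSRNOG00000016818, chr14:82273070-82287706), a receptor best known for restraining bone growth, had 154 and 297 counts in the control libraries, 176 and 192 in the D4 libraries, and 135 and 156 in the D7 libraries. Control library b was above all other libraries, which lay close together. The log2 fold change was -0.85 (SE 0.38, adjusted p = 0.114) in the D4 group and -0.87 (SE 0.38, adjusted p = 0.118) in the D7 group. Without control library a, these became -1.32 (adjusted p = 0.00616) and -1.35 (adjusted p = 0.00779). Without control library b they were -0.15 and -0.18. Control library b was also highest in pericyte and smooth muscle markers, with 5253 summed CPM against 1135 in control library a and 604 to 1066 in the injured libraries, and the part of these cells in Fgfr3 was not tested.

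Levels were compared between genes in FPKM, which accounts for transcript length and was not scaled by TMM. In the control group Fgf1 was highest, at 111 ± 12.9 FPKM (SD, n = 2), followed by Fgfr1 at 80 ± 6.79, Fgf7 at 52.2 ± 7.74 and Fgfr2 at 11.4 ± 2.74. The other 6 genes lay between 0.223 and 2.94 FPKM, where of neighbours in the order Fgf2 and Fgfr3, Fgfr3 and Fgf10, and Fgf9 and Fgf5 did not differ beyond the ranges of their libraries. In the D4 group the order was led by Fgfr1 at 77.4 ± 2.18, Fgf5 at 39.2 ± 8.25, Fgfr2 at 12.9 ± 0.973, Fgf7 at 11.6 ± 0.087 and Fgf1 at 3.84 ± 0.222. The other 5 genes lay between 0.833 and 1.90 FPKM, where Fgfr3 and Fgf2 overlapped, as did Fgf18, Fgf9 and Fgf10 with each other. In the D7 group the same 5 genes led in the same order, with Fgfr1 at 75.2 ± 7.57, Fgf5 at 27.3 ± 3.03, Fgfr2 at 16.5 ± 0.69, Fgf7 at 12.3 ± 0.685 and Fgf1 at 6.83 ± 1.65. The other 5 lay between 0.956 and 2.45 FPKM, where Fgfr3 and Fgf9 overlapped with each other and with Fgf18, and Fgf10 overlapped with Fgf18.

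The 7 ligand genes summed to 172 and 167 FPKM in the control libraries, 54.2 and 64.7 in the D4 libraries, and 49.8 and 55.5 in the D7 libraries. The control sums were thus above all injured sums. Fgf1 made up 69.9% and 61% of the ligand sum in the control libraries, 6.81% and 6.18% in the D4 libraries, and 16% and 10.2% in the D7 libraries. Fgf5 made up 0.0316% and 0.234% in the control libraries, 61.6% and 69.6% in the D4 libraries, and 50.5% and 53% in the D7 libraries. Among these 7 genes the most abundant transcript by FPKM was Fgf1 in the control nerve and Fgf5 in the injured nerve. The lengths implied by FPKM were 5136 bases for Fgf1 and 818 for Fgf5. In the D7 libraries Fgf1 had more fragments than Fgf5, at 822 and 545 counts against 412 and 451. The order of these genes in the D7 group thus depends on the lengths used. The share of Fgf7 moved less, from 27.2% and 34.5% in the control libraries to between 17.9% and 23.7% in the injured ones. The 3 receptor genes summed to 86.4 to 102 FPKM in all libraries, of which Fgfr1 made up 78.9% to 87.1%.

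**Figure D4:**
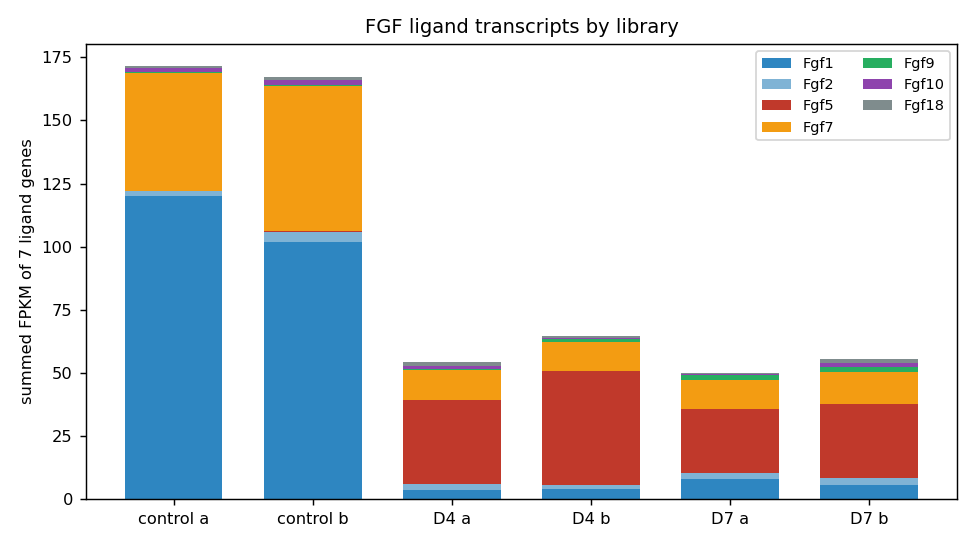
FPKM of the 7 ligand genes stacked for each of the 6 libraries, with 1 colour for each gene. The stacks reach 167 to 172 FPKM in the control libraries, mostly Fgf1 and Fgf7, and 49.8 to 64.7 FPKM in the injured libraries, mostly Fgf5 and Fgf7.

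The D7 group was also compared with the D4 group directly. None of the 10 genes was a DEG by edgeR's quasi-likelihood test, beside 2.18% of all genes tested. By the same test 2 of them, Fgf1 and Fgf9, had an unadjusted p under 0.05, beside 24.7% of all genes tested. DESeq2 called none of the 10, and edgeR's exact test called Fgf9 at an adjusted p of 0.0471. For Fgf1 the adjusted p was 0.00322 by DESeq2 and 0.00978 by the exact test, with log2 differences of 0.79 and 0.82 under the 2-fold limit. The median log2 difference of the 10 genes was 0.15, beside 0.01 over all genes tested.

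Of 20 other FGF genes (further ligands, intracellular homologous factors, receptors, co-receptors and carriers), 12 could be tested, and 4 of the other 8 had no count in any library. In the D4 group 4 of the 12 were downregulated and none was upregulated, beside 10.7% of all genes tested downregulated and 11.2% upregulated, with a median log2 fold change of -1.25. In the D7 group 3 were downregulated and none was upregulated, beside 9.02% and 9.83% of all genes tested, with a median of -0.69. Fgf4, a ligand best known from the early embryo, had 56 and 41 counts in the control libraries, 0 in both D4 libraries, and 2 and 0 in the D7 libraries. Against a floor of 3 counts in each library it was at least 22.9-fold lower in the D4 group, and with Fgf4 at this bound the list's median was still -1.25. In the D7 group, as a ratio of the scaled sums of 97 and 2 counts, it was 55.9-fold lower, with a 95% counting interval of 15.1 to 468. The first value is a bound and the second a ratio with an interval that holds that bound, so that they give no order of the days. Fgf12, an intracellular factor that binds sodium channels, had 89 and 76 counts in the control libraries, 40 and 49 in the D4 libraries, and 18 and 21 in the D7 libraries. Its log2 fold change was -1.41 (SE 0.27, adjusted p = 0.00789) in the D4 group and -2.28 (SE 0.29, adjusted p = 0.0023) in the D7 group. Klb, the co-receptor of Fgf21, had 58 and 45 counts in the control libraries, 17 and 7 in the D4 libraries, and 1 and 12 in the D7 libraries, with adjusted p of 0.0456 and 0.0346. The summed adipocyte markers were likewise highest in the control libraries and lowest in D7 library a. Their part in the Klb values was not tested. Fgf11 was the fourth gene of the D4 group (log2 fold change -1.35, SE 0.39, adjusted p = 0.0341). It had 71 and 100 control counts, 39 and 59 D4 counts, and 150 and 86 D7 counts. Its D7 change was 0.23 (SE 0.37, adjusted p = 0.659). Between the days Fgf11 differed by 1.57 (SE 0.39, adjusted p = 0.0775), and DESeq2 and edgeR's exact test called this difference. The calls of Fgf4 on both days and of Fgf12 in the D7 group held with any library left out. The list held 1 DEG in the D4 group without D4 library a and 2 without D4 library b, and Fgf12 was lost in both cases (adjusted p 0.0519 to 0.0643). Fgf11 was lost without control library b or either D4 library (0.0921 to 0.166). Klb was lost in the D4 group without any of the 4 control and D4 libraries (0.0953 to 0.213), and in the D7 group without either control library, either D4 library or D7 library a (0.0552 to 0.0887). Without TMM factors the D4 calls of Fgf11 and Klb were lost (adjusted p = 0.0665 and 0.0618). Fgf8, noted only after its values were seen, had no count in the control libraries, 8 and 17 in the D4 libraries and 0 and 2 in the D7 libraries, and did not pass the filter on low counts. It was called as higher in the D4 group with no such filter (adjusted p = 0.0412) and when D7 library a or D7 library b was left out (0.0324 and 0.0335).

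Of the genes that relay the signal inside the cell, a set of 16 was counted, among them the docking proteins Frs2 and Frs3, and the values below hold for these 16 and not for the relay as a whole. None of the 16 was a DEG in any comparison by edgeR's quasi-likelihood test, beside 21.9%, 18.8% and 2.18% of all genes tested in the D4 group, in the D7 group and between the days. Their median log2 fold change was -0.23 in the D4 group and -0.10 in the D7 group. An unadjusted p under 0.05 was found for 12 of them in the D4 group, 8 in the D7 group and 7 between the days, beside 53.2%, 48.4% and 24.7% of all genes tested, and DESeq2 and edgeR's exact test called none. Without the 2-fold limit, 5 were higher and 4 lower in the D4 group and 6 were lower in the D7 group at the same adjusted p, beside 44.2% and 37.5% of all genes tested.

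Of 15 feedback inhibitors and target genes of FGF signalling, 3 were upregulated and 2 were downregulated in the D4 group, and 4 were upregulated and 2 were downregulated in the D7 group. These are 5 and 6 of 15 genes, beside DEG shares of 21.9% and 18.8% over all genes tested. The median log2 fold change was 0.23 and 0.04. Flrt3, a membrane protein that binds FGF receptors, was upregulated, with 522 and 555 control counts, 5458 and 6705 D4 counts, and 4476 and 4667 D7 counts. Flrt3 rose by 2.97 (SE 0.14, adjusted p = 0.000124) in the D4 group and 2.87 (SE 0.14, adjusted p = 0.000245) in the D7 group. Spred3, an inhibitor of Ras activation, rose by 2.48 (SE 0.16, adjusted p = 0.000211) and 2.20 (SE 0.16, adjusted p = 0.000473). Dusp6, a phosphatase that ends kinase signalling, rose by 1.11 (SE 0.13, adjusted p = 0.00133) and 1.33 (SE 0.13, adjusted p = 0.00103), and without control library a or D4 library b its D4 change was 0.98 or 0.99. Spry3 had 16 and 18 counts in the control libraries, 38 and 37 in the D4 libraries, and 125 and 59 in the D7 libraries. It was a DEG in the D7 group (2.20, SE 0.44, adjusted p = 0.0113), but not without control library a (adjusted p = 0.0514). Its relative Spry4, also an inhibitor of receptor tyrosine kinase signalling, fell from 1276 and 1721 counts to 1012 and 1080 in the D4 libraries and to 451 and 700 in the D7 libraries. The log2 fold change of Spry4 was -1.06 (SE 0.29, adjusted p = 0.0279) in the D4 group, a call lost without control library b or either D4 library (0.106 to 0.133), and -1.60 (SE 0.29, adjusted p = 0.00856) in the D7 group. The ETS factor Etv1 fell by 1.20 (SE 0.11, adjusted p = 0.000614) in the D4 group. In the D7 group its change was -0.90 (SE 0.11, adjusted p = 0.00237), under the 2-fold limit. Without TMM factors the D4 changes of Etv1 and Spry4 were -0.91 and -0.77 and the D7 change of Flrt2 was -0.98. None of these was then a DEG. Spry2 became a DEG in the D4 group without TMM factors. With them its D4 change was 0.93 (SE 0.11, adjusted p = 0.00129), under the 2-fold limit. Flrt2 fell by 1.28 (SE 0.25, adjusted p = 0.0108) in the D7 group, and by 0.91 without D7 library a. Without D4 library b, the list held 3 DEGs in the D4 group. Between the days none of the 15 was a DEG, beside 2.18% of all genes tested. By the quasi-likelihood test 3 had an unadjusted p under 0.05, beside 24.7% of all genes tested. DESeq2 and edgeR's exact test called 1 each, Spry3.

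Heparan sulfate carriers and the enzymes that make or cut the chains were taken as a further list, of which 25 of 27 were in the mRNA table and 23 were tested. In the D4 group 5 were upregulated and 2 were downregulated, and the same numbers were found in the D7 group, with medians of 0.01 and -0.05. The 7 DEGs made up 30.4% of the list on each day, beside 21.9% and 18.8% of all genes tested. Gpc1, a heparan sulfate carrier anchored in the cell membrane, had 3029 and 1736 counts in the control libraries, 32532 and 41666 in the D4 libraries, and 12486 and 13546 in the D7 libraries. The D4 libraries were the highest and the control libraries the lowest. On the log2 scale Gpc1 rose by 3.46 (SE 0.22, adjusted p = 0.000209) in the D4 group and 2.27 (SE 0.21, adjusted p = 0.000898) in the D7 group. Between the days 1 of the 23 tested genes was a DEG, beside 2.18% of all genes tested. Gpc1 was also the DEG of this list between the days, at -1.19 (SE 0.21, adjusted p = 0.0372), and this call was lost without any of the 4 injured libraries (adjusted p 0.0663 to 0.223). Hpse, the enzyme that cuts heparan sulfate, had 61 and 73 counts in the control libraries, 417 and 208 in the D4 libraries, and 266 and 298 in the D7 libraries. It rose by 1.72 (SE 0.41, adjusted p = 0.0178) and 1.86 (SE 0.41, adjusted p = 0.0165). The Hpse calls were lost in the D4 group without control library a or D4 library a (0.0599 to 0.0792) and in the D7 group without control library a or D7 library b (0.0537 to 0.072). The sulfotransferase gene Hs6st2 rose by 1.44 (SE 0.30, adjusted p = 0.0105) in the D4 group, and without either D4 library the change was 1.41 to 1.47 with an adjusted p of 0.0547 to 0.0604. Gpc2 rose by 1.38 (SE 0.26, adjusted p = 0.00896) in the D7 group. Without TMM factors Agrn became a DEG in the D4 group, and Hs2st1 and Hs6st1 became DEGs in the D7 group. The carrier Gpc6 fell by 1.13 (SE 0.25, adjusted p = 0.0133) and 1.36 (SE 0.25, adjusted p = 0.00883), and Sulf1, which removes sulfate groups from the chains, fell by 1.05 (SE 0.31, adjusted p = 0.0358) and 1.60 (SE 0.31, adjusted p = 0.0108). In the D4 group both falls were lost without control library b or either D4 library, with adjusted p of 0.0513 to 0.0839 for Gpc6 and 0.0711 to 0.182 for Sulf1, and also without TMM factors, with changes of -0.84 and -0.76. In the D4 group the list held 4 DEGs without control library b, 3 without D4 library a and 4 without D4 library b.

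**Figure D5:**
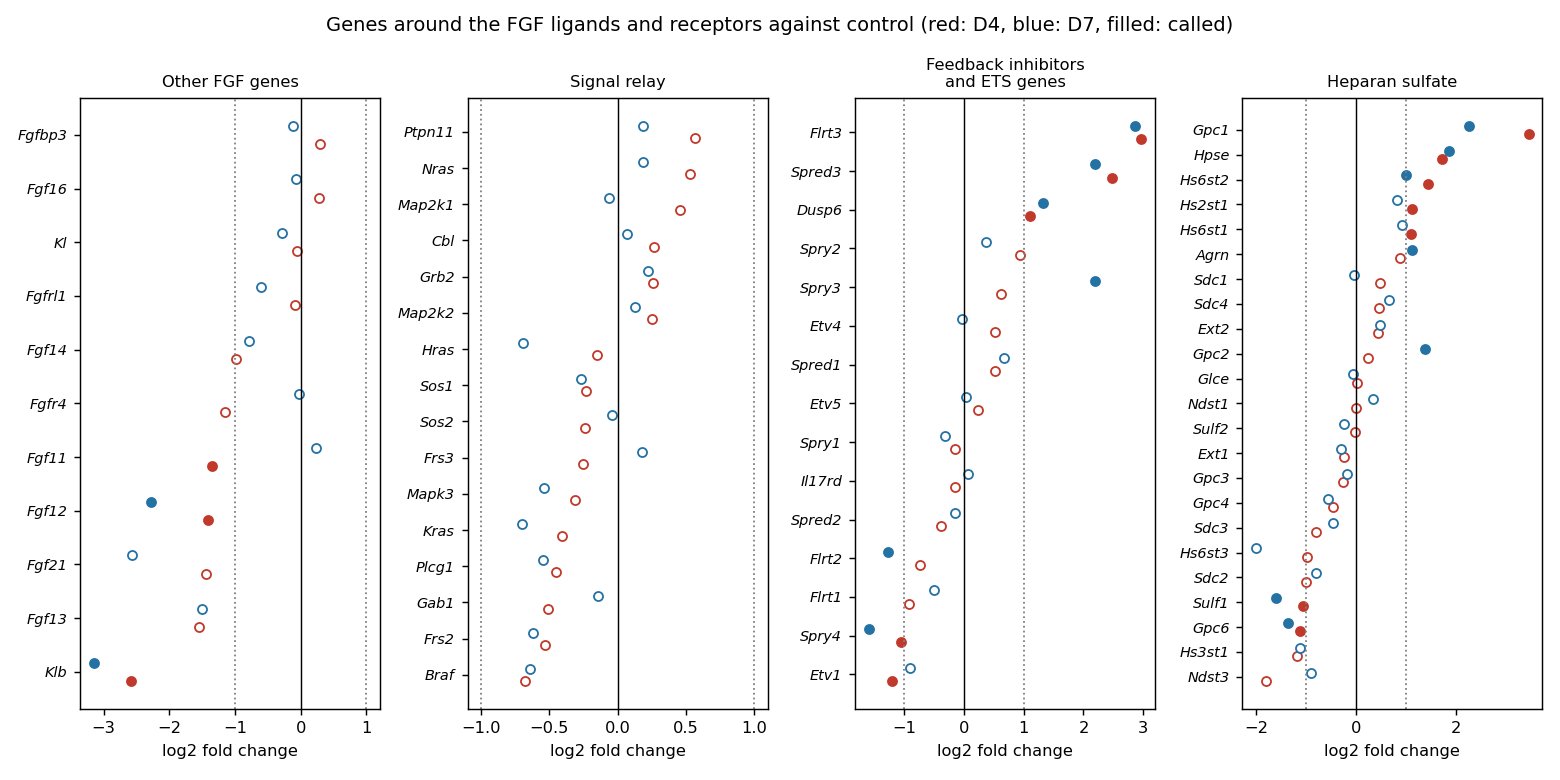
Log2 fold change against control of the tested genes of 4 lists, with red points for the D4 group, blue points for the D7 group, filled points for DEGs and a separate axis for each list. Flrt3 and Gpc1 lie furthest to the right in their lists, none of the 16 signal relay genes drawn is filled, and Fgf4, which had no count in the D4 libraries, is not drawn.

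The series also holds counts of long noncoding RNAs (lncRNAs), with 2694777 to 3043817 counted fragments in each library. Of these transcripts, 11 overlapped 1 of the 10 genes or lay within 10 kb of it, and 6 of the 11 could be tested. In the D4 group 1 of the 6 was differentially expressed, beside 10.1% of all lncRNAs tested, and in the D7 group 1 of the 6, beside 5.79%. Between the days none was, beside 0.249%, and none had an unadjusted p under 0.05 or was called by DESeq2 or edgeR's exact test. The called transcript on both days was NONRATT018558.2 (chr3:118365643-118368462), of 1827 bases, which shares 1230 bases of its span with an end of Fgf7. It had 878 and 726 counts in the control libraries, 121 and 125 in the D4 libraries, and 110 and 171 in the D7 libraries. The control libraries were again above all injured libraries. Its log2 fold change was -2.86 (SE 0.28, adjusted p = 0.00547) in the D4 group and -2.60 (SE 0.27, adjusted p = 0.0106) in the D7 group. With either D4 library left out, the D4 call was lost (adjusted p = 0.0529 and 0.0557). NONRATT013394.2 (chr18:32283653-32340732), the transcript inside Fgf1, had 14 and 21 counts in the control libraries, 3 and 3 in the D4 libraries, and 1 and 4 in the D7 libraries, and is named although it was not called. The control libraries were above all injured libraries. Its log2 fold change was -2.66 (SE 0.68, adjusted p = 0.0645) in the D4 group and -2.85 (SE 0.69, adjusted p = 0.0746) in the D7 group. The exact test of edgeR called it on both days (adjusted p = 0.0111 and 0.0094), while DESeq2 gave an adjusted p of 0.062 in the D4 group. Whether the fragments of each of these transcripts and of the gene it overlaps came from the same RNA was not tested.

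For each of the 4 DEGs among the 10 genes, the tested gene with the nearest pattern over the 6 libraries was found by the root mean square difference of log2 CPM, each gene centred on its own mean. By this rule Fgf4 came out nearest to Fgf1, but with 0 counts in both D4 libraries and 2 and 0 in the D7 libraries its values there are set by the constant added before the logarithm, so that no difference is given for this pair. Pcsk1, which encodes a prohormone convertase, was nearest to Fgf5, at 0.28, with 6 and 25 counts in the control libraries, 2419 and 3102 in the D4 libraries, and 932 and 1136 in the D7 libraries. Fgf5 itself had 1 and 6 control counts, so that this difference depends in part on the constant added before the logarithm. Cd99l2 was nearest to Fgf7, at 0.08, with 298 and 269 counts in the control libraries, 76 and 84 in the D4 libraries, and 68 and 69 in the D7 libraries. Dnai2, a gene of ciliary dynein, was nearest to Fgf9, at 0.12, with 25 and 14 counts in the control libraries, 37 and 48 in the D4 libraries, and 101 and 69 in the D7 libraries.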

How the data were processed

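The authors removed reads of ribosomal RNA, aligned the rest to the rat genome with HISAT2 2.0.4, and assembled and counted transcripts with StringTie 1.3.0, on Rnor_6.0 according to the submitters' processing notes. The deposited tables hold raw counts of fragments and FPKM for each mRNA gene and lncRNA transcript. The FPKM values deposited by the authors were used for levels, and they carry no TMM scaling. The counts were tested with edgeR 4.0.16 in R 4.3.3 (filterByExpr, TMM factors of 0.863 to 1.08, quasi-likelihood fit of all 6 libraries, Benjamini-Hochberg adjustment), with mRNAs and lncRNAs in separate fits. Standard errors were derived from each log2 fold change and its F statistic.

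DEGs needed an adjusted p under 0.05 and a 2-fold change. In simulated D4 data for 15195 mRNA genes, 81 of 100 genes changed 4-fold and 95 of 100 changed 16-fold were called. For 14077 lncRNAs these numbers were 3 and 73 of 100. Each simulation changed 200 features in all. That is a smaller share than the 21.9% of genes and 10.1% of lncRNAs called in the D4 group. These rates therefore need not hold for the tests of the real data. The named genes were all 10 members, the list genes with the largest changes (up to 3 in each direction and day) or a change between the days, called lncRNAs and the nearest pattern of each called member. The members, lists and tests were chosen with earlier results of these data known. From the signal relay list, 2 genes are not reported here and were left out of its counts for a reason that did not depend on their values. Promoter sequences came from RefSeq (GRCr8). The alternatives used other scaling, filters, thresholds, tools (DESeq2 1.42.0, edgeR's exact test), a replicate block and the omission of each library. Counting intervals cover counting error only. Cell type markers were summed per library.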

Additional observations from a re-analysis of the deposited data

Results flagged for a closer look

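Gpc1, the membrane-anchored heparan sulfate carrier, differed between the D7 and D4 groups in the test of the difference between the days. Its log2 difference was -1.19, with an adjusted p of 0.0372 in edgeR's quasi-likelihood test over all genes, and both D7 libraries lay below both D4 libraries and above both control libraries. DESeq2 and edgeR's exact test also called Gpc1, and the call was lost when any of the 4 injured libraries was left out, with a replicate block (adjusted p = 0.0652), when a 2-fold change was itself tested and at an adjusted p under 0.01.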

How the results depend on the processing

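Of 504 log2 fold changes of the 10 genes under the alternatives, 479 kept their direction and their side of the threshold. The calls of Fgf1, Fgf5 and Fgf7 against control held under every alternative that could test them, and Fgf9 was lost only under the tested 2-fold change and an adjusted p under 0.01. Without TMM factors Fgf18 turned to 0.03 in the D7 group and Fgfr2 to 0.18 in the D4 group. With each library left out in turn, Fgf18 ranged from -0.28 to 0.41 (D4), -2.57 to 0.63 (D7) and -2.67 to 0.49 (between days). In the same way Fgf10 ranged from -1.13 to 0.92, Fgfr1 from -0.15 to 0.03 and Fgfr3 from -0.18 to 0.10 between the days, and Fgfr2 from -0.32 to 0.14 in the D4 group. The cause was not tested.

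The letters a and b mark different rats and do not pair the libraries. The correlation of same-letter deviations was 0.01 between D4 and control, 0.19 between D7 and control and -0.13 between D7 and D4. A replicate block changed no member call and left 2 of the other FGF genes in the D4 group and 0 heparan sulfate genes between the days. It ended the calls of Fgf11 and Klb in the D4 group (adjusted p = 0.054 and 0.0712), Klb in the D7 group (0.0564), Sulf1 in the D4 group (0.0501), Hs6st2 in the D7 group (0.0648) and Gpc1 between the days (0.0652).

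With each library left out in turn, DEGs ranged from 3 to 5 (members, D4), 0 to 1 (members, between days), 1 to 5 (other FGF genes, D4, with Fgf8 as the fifth without either D7 library), 3 to 5 (feedback, D4), 0 to 1 (feedback, between days), 3 to 7 (heparan sulfate, D4), 0 to 1 (heparan sulfate, between days) and 0 to 1 (lncRNAs, D4). When the 2-fold change was itself tested, D4 counts were 1 (other FGF), 2 (feedback) and 1 (heparan sulfate), D7 counts 2 (feedback) and 1 (heparan sulfate), and the heparan sulfate count between days 0. At an adjusted p under 0.01, the counts were 2 (other FGF, D4), 3 and 4 (heparan sulfate, D4 and D7), 0 (heparan sulfate, between days) and 0 (lncRNAs, D7). At that limit the calls of Spry4 in the D4 group and of Klb, Spry3 and Flrt2 in the D7 group were also lost. With no fold threshold, they were 9 and 6 (signal relay, D4 and D7), 13 and 13 (heparan sulfate, D4 and D7) and 1 (feedback, between days). The exact test gave 1 (members, other FGF and feedback, each between days), 2 (heparan sulfate, between days) and 2 and 2 (lncRNAs, D4 and D7). DESeq2 gave 1 (other FGF and feedback, each between days) and 2 (heparan sulfate, between days). Without TMM factors 2 other FGF genes were DEGs in the D4 group. A filter of 10 counts in every library gave 1 (other FGF, D7) and 2 (heparan sulfate, between days), and a fit of only control and D4 gave 2 lncRNAs. Without TMM factors, upregulated genes made up 69.3% and 70.4% of all DEGs in the D4 and D7 groups, against 51.2% and 52.1% with them.

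Fgf18, with 2 to 19 counts in each library, had standard errors of 0.87 to 0.90 on the log2 scale.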
